A study of Mus musculus with 8 samples.

Results

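Complex I (NADH:ubiquinone oxidoreductase) is described here through the genes whose symbols start with Nduf, measured in pressure-loaded mouse ventricles. Every probe set annotated to exactly 1 Nduf symbol was taken, and a gene with several was represented by the one brightest on average across the 8 arrays. This gave 44 genes out of 18194 genes with such a probe set. A total of 43 of them, out of 9605 genes in all, exceeded a log2 value of 5 in at least 4 arrays and were tested. The gene left out, Ndufb4, was represented by a probe set that lay between 2.21 and 2.26 in every array. A probe set of Ndufs8 likewise read 2.20 to 2.34, beside 14.33 to 15.04 for the one used. The flat reading of Ndufb4 therefore does not show that its transcript was absent. Probe sets that name several genes were not used, so Ndufa11 and Ndufs6 have no value here. The 43 genes comprise 6 core subunits, 8 accessory subunits of the peripheral arm, 18 of the membrane arm, the acyl carrier subunit Ndufab1, 8 assembly factors and 2 genes that carry the name but not the place in complex I.

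Complex I takes electrons from NADH through a flavin and a chain of iron-sulfur clusters in its peripheral arm, passes them to ubiquinone, and uses the energy to pump protons across the inner mitochondrial membrane. Its conserved core does this chemistry, accessory subunits surround and stabilise the core, and assembly factors help to build the enzyme without staying in it. The heart depends heavily on this chain for ATP, and its ventricular muscle is densely packed with mitochondria. The membrane-bound core is encoded by mitochondrial DNA, so the Nduf genes cover the nuclear share.

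The mice were males of the FVB background aged 8 to 12 weeks, and every animal had been banded at the ascending aorta 1 week before, so no unbanded heart serves as a reference. The 4 arrays TG 1 to TG 4 are labelled as CHF1/Hey2 transgenic, with the transgene restricted to myocardium by the mlc2v promoter, and the 4 arrays WT 1 to WT 4 as wild type. Each array carries ventricular total RNA, which mixes all cell types of the tissue. In such bulk RNA, fewer cells of a type and less RNA per cell cannot be told apart. Values are log2 expression, on which a step of 1 is a doubling, and having 4 arrays a group limits how precisely each mean is known.

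Libraries stood apart within the TG group. Correlated across the genes tested, TG 2 reached r of at most 0.840 with any other array, and 37.2% of its gene values were more than 2-fold away from the other arrays' median. TG 3 followed with 9.26%, and the remaining 6 arrays had between 0.729% and 1.53%. The Nduf genes were steadier than all genes: 2 of 43 were that far off in TG 2 (Ndufa5 and Ndufa4l2), 1 in TG 3 (Ndufaf6) and 0 elsewhere. Most are bright, with 31 above log2 12 in all 8 arrays. Steadiness was not particular to them. In TG 2 they deviated from their WT means by -1.12 to 1.55, and 37 genes of complexes III, IV and V by -0.75 to 0.86. Complex II reached -1.26 there and further complex I assembly factors -1.51. The targeted gene Hey2 measured 5.96 ± 0.24 in TG and 6.07 ± 0.47 in WT (SD, n = 4 each; exact two-sided permutation p = 0.771), so its probe set does not separate the labels, and TG means labelled transgenic throughout.

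In the comparison of TG with WT hearts, which asks what CHF1/Hey2 in the loaded myocardium does to transcript levels, no Nduf gene passed. By limma with Benjamini-Hochberg adjustment over 9605 genes, 0 of 43 Nduf genes were called higher and 0 lower, against a background of 0% of all genes in each direction (percent called 0 and 0). The adjusted p of the 43 ran from 0.813 to 0.995. Before adjustment, 0 of 43 had a limma p under 0.05, against 1.60% of all genes. Small positive differences prevailed without passing. A total of 38 of 43 Nduf genes had the higher mean in TG, against 57.0% of all genes, and the median difference was 0.16 on the log2 scale, against 0.06 over all genes. The differences ran from -0.21 (Ndufa5) to 0.54 (Ndufaf3), and 31 of 43 were smaller in size than the SD of the TG arrays. The 95% confidence interval of 40 of the 43 lay within a 2-fold change in either direction.

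A few arrays set the size of this offset. Without TG 3, 30 of 43 had the higher mean in TG (background 60.6%) and the median difference was 0.05, against 0.12 over all genes. Without TG 2, 42 of 43 had the higher mean, all but Ndufa4l2 (background 55.9%), with a median of 0.14. Without both, 33 of 43 did (background 65.3%), and the median was 0.04, against 0.05 over all genes. Leaving out WT 3 lowered the median difference to 0.08.

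**Figure D1:**
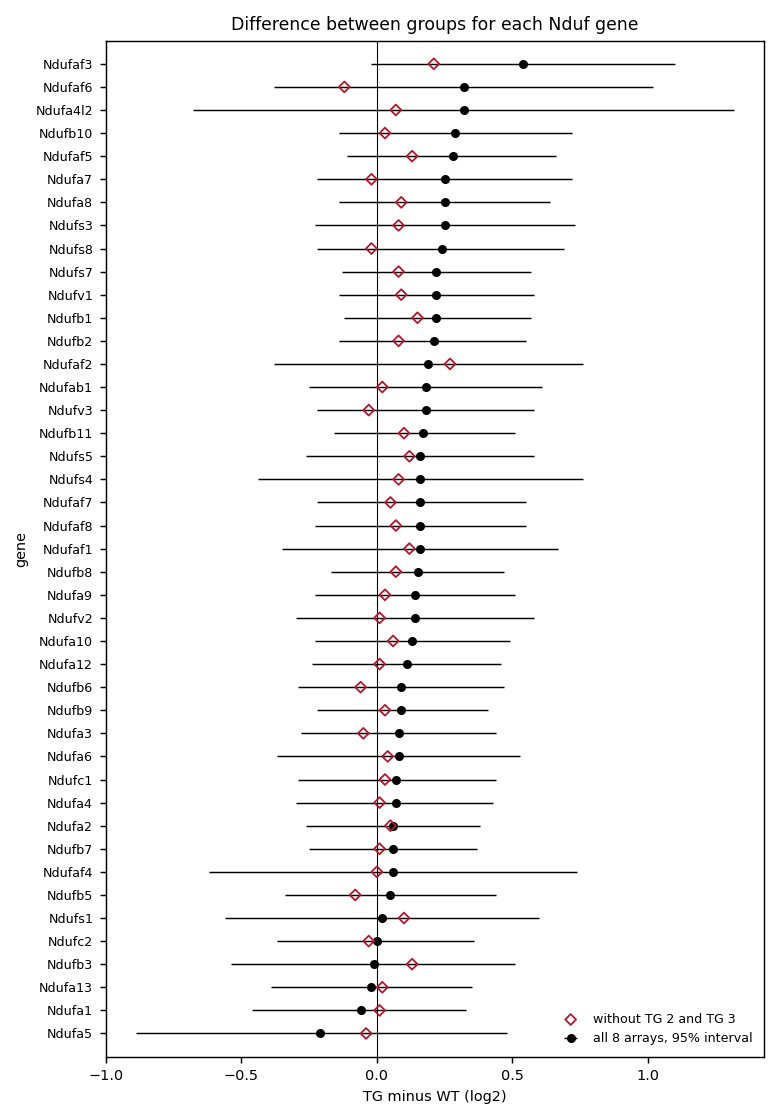
Difference between TG and WT (log2, horizontal axis) for each of the 43 Nduf genes (vertical axis, ordered by the difference). Filled points with bars give all 8 arrays with the 95% confidence interval and open diamonds the difference without TG 2 and TG 3; every interval includes 0, and the median over the diamonds is 0.04.

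The core subunits carry the flavin and the iron-sulfur clusters. All 6 had the higher mean in TG, with a median difference of 0.22 (0.08 without TG 2 and TG 3), and 0 of 6 passed. Ndufs7, which holds the cluster next to ubiquinone, had log2 values of 14.23, 14.44, 14.55 and 14.20 in TG 1 to TG 4 and of 14.18, 14.22, 14.09 and 14.07 in WT 1 to WT 4. TG 1, TG 2 and TG 3 lay above every WT array, TG 1 by the narrowest step, whereas TG 4 lay within the WT range. The difference was 0.22 (SE 0.153; limma adjusted p = 0.813; exact permutation p = 0.0571), or 0.08 without TG 2 and TG 3. Ndufs8, an iron-sulfur subunit beside it, read 14.56, 15.04, 14.92 and 14.35 in TG 1 to TG 4 and 14.59, 14.65, 14.33 and 14.36 in WT 1 to WT 4. In Ndufs8 TG 2 and TG 3 exceeded the WT arrays and TG 1 did not, and the difference of 0.24 (SE 0.199) went to -0.02 without them.

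Ndufv1 binds the flavin that receives electrons from NADH. Its values were 12.96, 13.33, 13.09 and 12.95 in TG 1 to TG 4 and 12.82, 12.74, 12.96 and 12.95 in WT 1 to WT 4, a difference of 0.22 (SE 0.158) that was 0.13 without TG 2. Ndufv2, the partner of Ndufv1 with an iron-sulfur cluster, gave 14.16, 14.12, 14.46 and 13.88 in TG and 14.23, 14.20, 13.74 and 13.87 in WT. In Ndufv2 the WT arrays themselves split, with WT 1 and WT 2 above WT 3 and WT 4 by more than the group difference of 0.14 (SE 0.194). Ndufs3, which lies close to the ubiquinone site, behaved alike at 13.43, 13.45, 13.68 and 13.00 in TG and 13.38, 13.34, 12.83 and 13.00 in WT, with a difference of 0.25 (SE 0.209) and 0.08 without TG 2 and TG 3.

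Ndufs1, the large iron-sulfur subunit, was the core subunit that separated the 2 divergent arrays. It measured 13.71, 12.83, 13.96 and 13.42 in TG 1 to TG 4 and 13.52, 13.61, 13.21 and 13.49 in WT 1 to WT 4. TG 2 was the lowest and TG 3 the highest of the 8 arrays, 1.13 log2 units apart. The group difference was 0.02 (SE 0.253), from opposite deviations of -0.63 and 0.51, and it was 0.24 without TG 2 and -0.14 without TG 3.

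**Figure D2:**
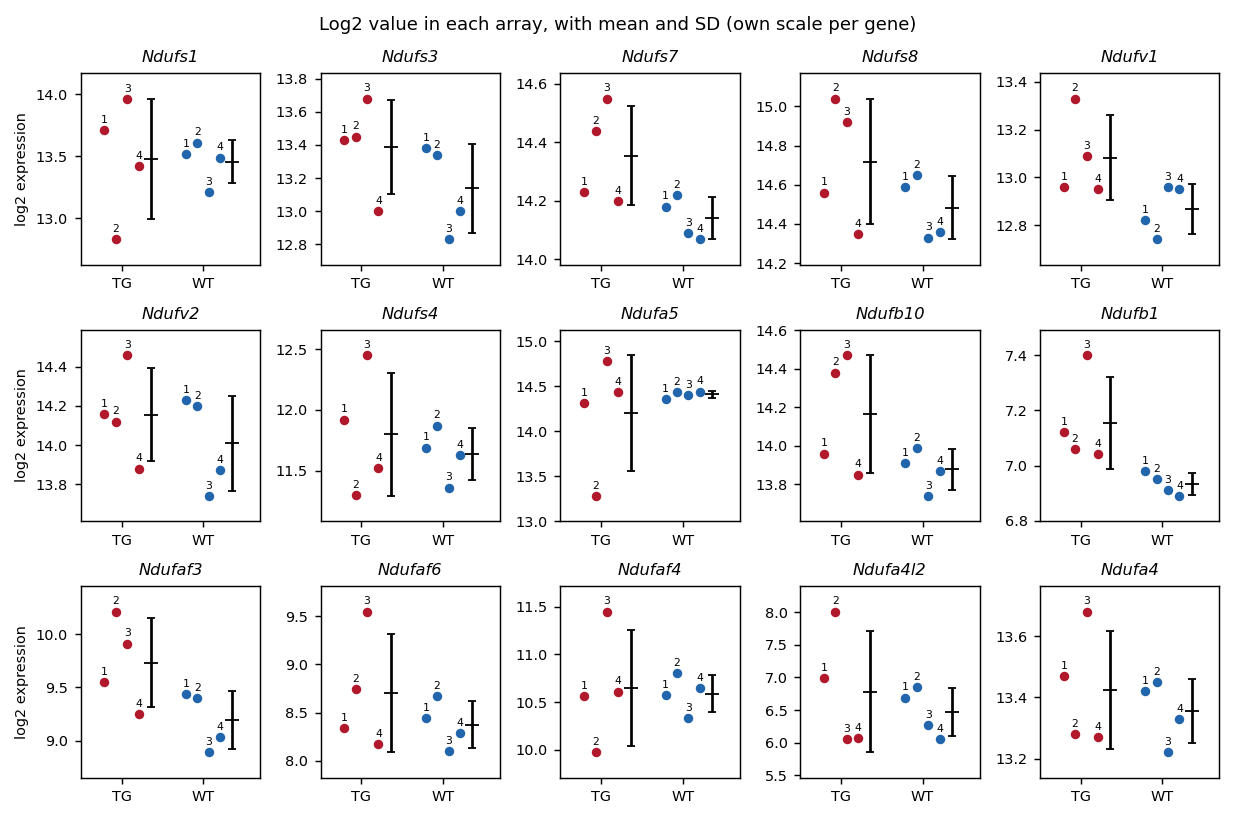
Log2 expression (vertical axis, own scale for each gene) of 15 Nduf genes in the 4 TG arrays (red) and the 4 WT arrays (blue), with replicate numbers beside the points and black bars for mean and SD. TG 2 and TG 3 lie at opposite ends for Ndufs1 (12.83 and 13.96) and together at the top for Ndufs8 (15.04 and 14.92).

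Among the 8 accessory subunits of the peripheral arm, 7 had the higher mean in TG, the median difference was 0.13 (0.02 without TG 3), and 0 of 8 passed. Ndufa7 had values of 12.76, 13.36, 13.04 and 12.55 in TG 1 to TG 4 and 12.77, 12.82, 12.58 and 12.53 in WT 1 to WT 4. TG 2 held the highest value, 0.69 above the WT mean, and without TG 2 and TG 3 the difference of 0.25 (SE 0.207) became -0.02. Ndufa9, a subunit at the junction of the arms, differed by 0.14 (SE 0.162). Ndufs4, whose loss in mice causes a fatal encephalopathy, gave 11.92, 11.30, 12.45 and 11.52 in TG and 11.69, 11.87, 11.36 and 11.63 in WT. As in Ndufs1, TG 2 was lowest and TG 3 highest, and the difference of 0.16 (SE 0.263) was 0.32 without TG 2 and -0.06 without TG 3.

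Ndufa5 was the exception with the lower mean in TG. It read 14.31, 13.28, 14.78 and 14.43 in TG 1 to TG 4, whereas WT 1 to WT 4 lay close together at 14.36, 14.43, 14.40 and 14.44. TG 2 deviated from the WT mean by -1.12 and TG 3 by 0.37. The difference of -0.21 (SE 0.300) turned to 0.10 without TG 2. A second probe set of Ndufa5 showed the same low array, at 11.56 in TG 2 against 12.53, 12.66, 12.52 and 12.45 in WT 1 to WT 4.

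The membrane arm holds the proton pumps, and its nuclear subunits are all accessory. Of 18 measured, 14 had the higher mean in TG, with a median difference of 0.09 (0.05 without TG 3), and 0 of 18 passed. Ndufb1, a small single-pass subunit, was the 1 Nduf gene whose groups did not overlap, in a background of 2.00% of all genes with every TG value above every WT value and 0.479% with every TG value below. It had 7.12, 7.06, 7.40 and 7.04 in TG 1 to TG 4 and 6.98, 6.95, 6.91 and 6.89 in WT 1 to WT 4. The gap between the lowest TG and the highest WT value was narrow beside TG 3, and the difference of 0.22 (SE 0.151; limma adjusted p = 0.813; exact permutation p = 0.0286, the smallest this design can give) was 0.15 without TG 2 and TG 3. A share of 1 in 43 is close to that background.

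Ndufb10 and Ndufa8, 2 accessory subunits that face the intermembrane space, had the smallest p of this arm. Ndufb10 measured 13.96, 14.38, 14.47 and 13.85 in TG 1 to TG 4 and 13.91, 13.99, 13.74 and 13.87 in WT 1 to WT 4, a difference of 0.29 (SE 0.189) that was 0.03 without TG 2 and TG 3. Ndufa8 gave 13.23, 13.40, 13.48 and 13.02 in TG and 13.08, 13.17, 12.82 and 13.06 in WT, a difference of 0.25 (SE 0.169) that was 0.09 without these arrays. In both genes TG 4 lay inside the WT range. Ndufb2 differed by 0.21 (SE 0.152), Ndufb11 by 0.17 (SE 0.148), Ndufb8 by 0.15 (SE 0.139) and Ndufb6 by 0.09 (SE 0.167), and Ndufb6 turned to -0.06 without TG 2 and TG 3.

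The remaining 4 genes with the lower mean in TG belong to this arm, namely Ndufa1, Ndufa13, Ndufb3 and Ndufc2, with differences of -0.06, -0.02, -0.01 and -0.00 (Ndufa13 and Ndufc2 are named here after their values were seen). Each was lowest of all 8 arrays in TG 2. Ndufb3 read 13.27, 12.46, 13.45 and 13.21 in TG 1 to TG 4 and 13.24, 13.17, 12.96 and 13.08 in WT 1 to WT 4. Without TG 2 the differences of Ndufa1, Ndufa13, Ndufb3 and Ndufc2 were 0.06, 0.09, 0.20 and 0.07.

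Ndufab1 is the mitochondrial acyl carrier protein, which serves fatty acid synthesis inside mitochondria and also sits in complex I. Its values were 14.04, 14.14, 14.36 and 13.80 in TG 1 to TG 4 and 14.03, 14.11, 13.60 and 13.87 in WT 1 to WT 4. TG 2 and TG 3 lay above every WT array and WT 3 below every TG array, while the other values overlapped, and the difference was 0.18 (SE 0.188), or 0.02 without TG 2 and TG 3.

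The 8 assembly factors all had the higher mean in TG, with a median difference of 0.17 (0.04 without TG 3), and 0 of 8 passed. Ndufaf3, which works with Ndufaf4 on the module that binds ubiquinone, had the largest difference of any Nduf gene. It measured 9.55, 10.21, 9.91 and 9.25 in TG 1 to TG 4 and 9.44, 9.40, 8.89 and 9.03 in WT 1 to WT 4. TG 1, TG 2 and TG 3 lay above every WT array and TG 4 did not. The difference was 0.54 (SE 0.247, a 1.45-fold ratio; limma unadjusted p = 0.0581 and adjusted p = 0.813; exact permutation p = 0.114), or 0.21 without TG 2 and TG 3.

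Its partner Ndufaf4 split the divergent arrays instead. It read 10.56, 9.97, 11.45 and 10.61 in TG 1 to TG 4 and 10.57, 10.80, 10.33 and 10.65 in WT 1 to WT 4, so TG 2 was lowest and TG 3 highest of the 8 arrays. The opposite deviations of -0.62 and 0.87 left a difference of 0.06 (SE 0.299), which was -0.21 without TG 3. Ndufaf6, which is needed to assemble the same enzyme, stood out in TG 3 alone, with 8.34, 8.74, 9.55 and 8.17 in TG and 8.44, 8.67, 8.10 and 8.29 in WT. Its difference of 0.32 (SE 0.306) was 0.04 without TG 3 and -0.12 without TG 2 and TG 3.

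Ndufaf5, an enzyme that modifies Ndufs7, gave 8.27, 8.54, 8.66 and 8.32 in TG 1 to TG 4 and 8.34, 8.29, 8.04 and 7.99 in WT 1 to WT 4, a difference of 0.28 (SE 0.170). Ndufaf1, a member of the complex that assembles the membrane arm, gave 9.70, 9.23, 10.10 and 9.46 in TG and 9.66, 9.61, 9.20 and 9.40 in WT, a difference of 0.16 (SE 0.222). Without TG 3 the difference of Ndufaf1 was -0.00. With limma's array weights, which count divergent arrays less, 6 of 43 Nduf genes had an unadjusted p under 0.05 (Ndufaf1, Ndufaf2, Ndufaf3, Ndufb1, Ndufs3 and Ndufs5, of which Ndufaf2 and Ndufs5 are named after their values were seen), against 15.9% of all genes.

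Ndufa4 and Ndufa4l2 carry the family name but are not part of complex I. Ndufa4, now counted with complex IV, differed by 0.07 (SE 0.160). Ndufa4l2, a related gene known to respond to low oxygen, measured 6.99, 8.01, 6.05 and 6.07 in TG 1 to TG 4 and 6.69, 6.85, 6.27 and 6.05 in WT 1 to WT 4. It had the widest WT spread of the 43, with an SD of 0.37, and the highest value lay in TG 2. The difference of 0.32 (SE 0.439) turned to -0.09 without TG 2. TG 3, where nearly every other Nduf gene was high, held for Ndufa4l2 the lowest TG value.

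Across arrays, the Nduf genes moved as a block in TG 3 and in 2 directions in TG 2. In TG 3, 42 of 43 lay above their WT mean, with a median deviation of 0.38, and 41 of 43 lay above all 4 WT arrays, against 29.8% of all genes. The exceptions to the latter were Ndufa10 and Ndufa4l2. All genes tested had a median deviation of -0.02 in that array. Assembly factors deviated by a median of 0.65 in TG 3, core subunits by 0.44, peripheral accessory subunits by 0.38 and membrane accessory subunits by 0.27. These figures describe 1 array.

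In TG 2, 23 of 43 Nduf genes lay above all 4 WT arrays and 11 below them, against 52.0% and 33.5% of all genes. The 11 low genes were Ndufa1, Ndufa5, Ndufa6, Ndufa13, Ndufaf2, Ndufaf4, Ndufb3, Ndufc2, Ndufs1, Ndufs4 and Ndufs5, and each was also the lowest of the 8 arrays. They come from the core, both arms and the assembly factors, and both shares lie near or under those of all genes in that array. In TG 1, 22 of 43 lay above all 4 WT arrays (19.8% of all genes), with a median deviation of 0.10. In TG 4, 2 of 43 did, Ndufb1 and Ndufb11 (26.5% of all genes), with a median deviation of -0.03.

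**Figure D3:**
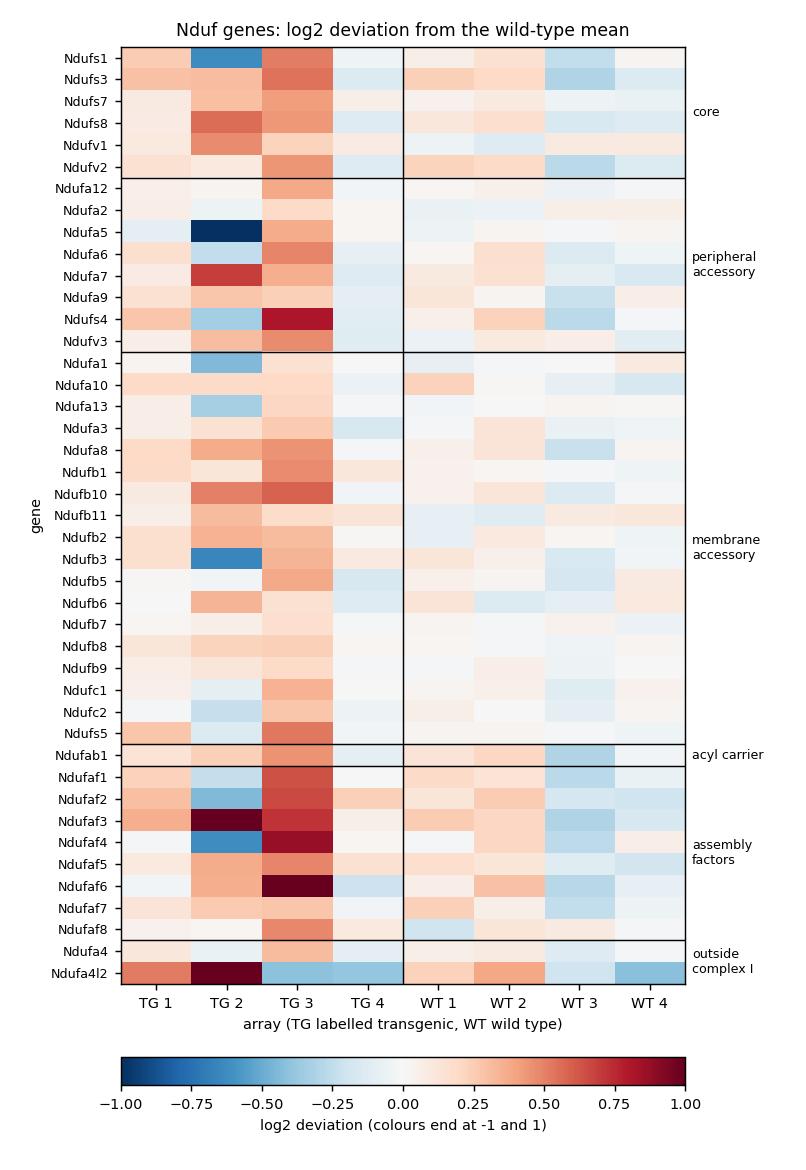
Log2 deviation of each of 43 Nduf genes (rows, grouped by role) from its own WT mean in each array (columns; red above, blue below, colours end at -1 and 1). TG 3 is red for 42 of 43 genes, and TG 2 mixes 27 genes above with 16 below.

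The WT arrays shared a pattern too. In 25 of 43 Nduf genes WT 1 and WT 2 both lay above WT 3 and WT 4, an order found in 25.1% of all genes, and WT 3 was the lowest WT array in 24 of 43, against 24.6% of all genes. The median deviation was 0.05, 0.09, -0.12 and -0.03 in WT 1 to WT 4. A low WT 3 was not particular to Nduf genes. It lay below the WT mean in 34 of 43 Nduf genes and 4795 of 9605 genes in all. For complex II it did so in 8 of 8 genes and for further complex I assembly factors in 11 of 11. For complexes III, IV and V the count was 30 of 37. The WT spread of the Nduf genes, most of them bright, was small, with a median SD of 0.12 against 0.19 over all genes. Over the 6 arrays other than TG 2 and TG 3, the median Pearson r between 2 Nduf genes was 0.48 (903 pairs, n = 6 arrays), against 0.06 between any 2 genes tested. These pairs share arrays and normalization, and r is given as a description.

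Other genes of the respiratory chain were compared with the Nduf genes array by array. Of 11 further complex I assembly factors measured (Acad9, Ecsit, Foxred1 and others), 0 passed and 8 had the higher mean in TG, with a median difference of 0.24, or 0.08 without TG 2 and TG 3. Dmac2 and Foxred1, both assembly factors, had the smallest p of these at differences of 0.39 (SE 0.211) and 0.41 (SE 0.222). Complex II, which feeds electrons from succinate, had 7 of 8 members with the higher mean, with a median difference of 0.19 (0.11 without TG 3, 0.08 without TG 2 and TG 3) and 0 passing. Complexes III, IV and V had 32 of 37, with a median of 0.11 (0.07 without TG 3, 0.04 without TG 2 and TG 3) and 0 passing. In TG 3 the median deviations were 0.57 for the further assembly factors, 0.57 for complex II and 0.22 for complexes III, IV and V, beside 0.38 for the Nduf genes.

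The mitochondrially encoded subunits had 1 gene on this array with a value here, ND5. It read 15.38, 14.35, 15.23 and 15.17 in TG 1 to TG 4 and 15.21, 15.29, 15.07 and 15.22 in WT 1 to WT 4. TG 2 was lowest, and the TG 3 value stayed within the WT range, unlike most nuclear subunits. The difference was -0.17 (SE 0.238; limma adjusted p = 0.823), or 0.07 without TG 2 and TG 3.

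Markers of other cells moved in the same arrays. All 10 cardiomyocyte markers lay above 5 in every array, which fits the labelled tissue, and their summed level ran from 18.37 to 18.62 in TG and from 18.52 to 18.56 in WT (log2 of the sum of linear values). The 8 fibroblast markers, all above 5 in every array, had a summed level of 14.76 in TG 3, against 16.40 to 16.76 in the other TG arrays and 16.62 to 16.85 in WT. The 8 macrophage markers, also all above 5, summed to 12.90 in TG 3 and 14.85 in TG 2, against 13.59 to 14.32 in WT. The 8 endothelial markers summed to 13.53 in TG 2, against 12.50 to 13.01 in WT, and at 12.76 in TG 3 they stayed within that range. The 6 smooth muscle and pericyte markers summed to 14.74 in TG 2 and 14.10 in TG 3, against 14.37 to 14.45 in WT. The cardiomyocyte markers deviated from their WT means by a median of 0.06 in TG 3, while the Nduf genes deviated by 0.38. The part of these shifts in the Nduf values was not tested.

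**Figure D4:**
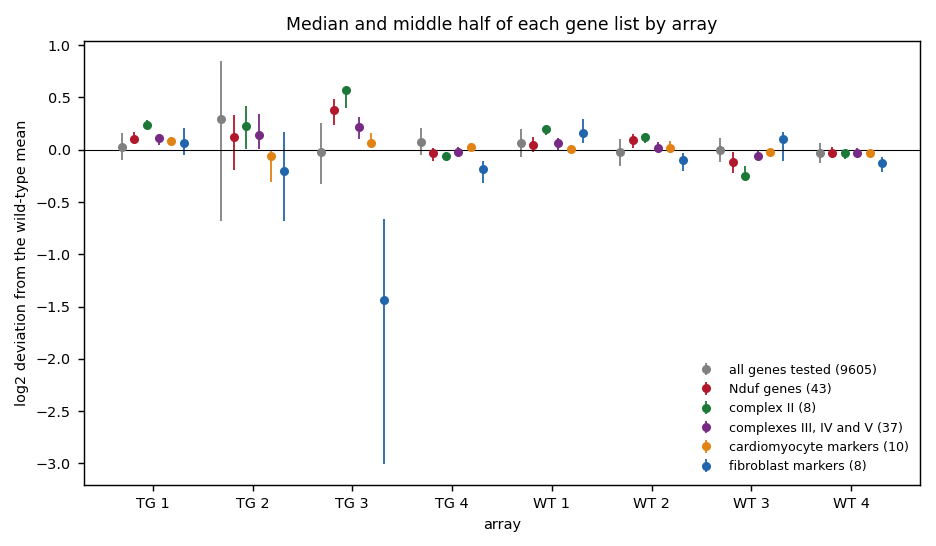
Median (points) and quartiles (bars) of the log2 deviation from the WT mean (vertical axis) in each array (horizontal axis) for all 9605 genes tested, the Nduf genes, complex II, complexes III, IV and V, and markers of cardiomyocytes and fibroblasts. In TG 3 the Nduf genes lie at 0.38 and the fibroblast markers at -1.44.

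Several genes are read by more than 1 probe set, which gives a second reading of the same arrays. Of 88 probe sets with 1 Nduf symbol, 80 passed the filter on level, and 21 genes had more than 1, with 37 further probe sets beside those used above. In TG 3, 37 of these 37 lay above their WT mean and 36 above all 4 WT arrays, with a median deviation of 0.39. The high level in TG 3 was therefore read by the further probe sets as well. In TG 2 the range among the probe sets of a gene had a median of 0.16, but exceeded 0.5 in Ndufa12, Ndufab1 and Ndufaf4.

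Ndufaf4 has 2 probe sets, and the further one read 9.32, 5.68, 10.17 and 9.19 in TG 1 to TG 4 and 9.12, 9.49, 8.65 and 9.06 in WT 1 to WT 4. In TG 2 it deviated by -3.40 from its WT mean, while the probe set used above deviated by -0.62. Of Ndufab1, 3 further probe sets deviated by -1.62, -2.09 and -2.71 from their WT means in TG 2, whereas the main one and the remaining further one lay 0.24 and 0.43 above. The sign of the TG difference disagreed between probe sets in Ndufab1, Ndufaf4, Ndufc2 and Ndufs4. In Ndufc2 the probe set used gave -0.00 and the further ones 0.20 and 0.27. By contrast, all 5 probe sets of Ndufs8 that passed the filter lay above WT in TG 2, by 0.53 to 1.00, and all 5 of Ndufa7, by 0.69 to 1.03.

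**Figure D5:**
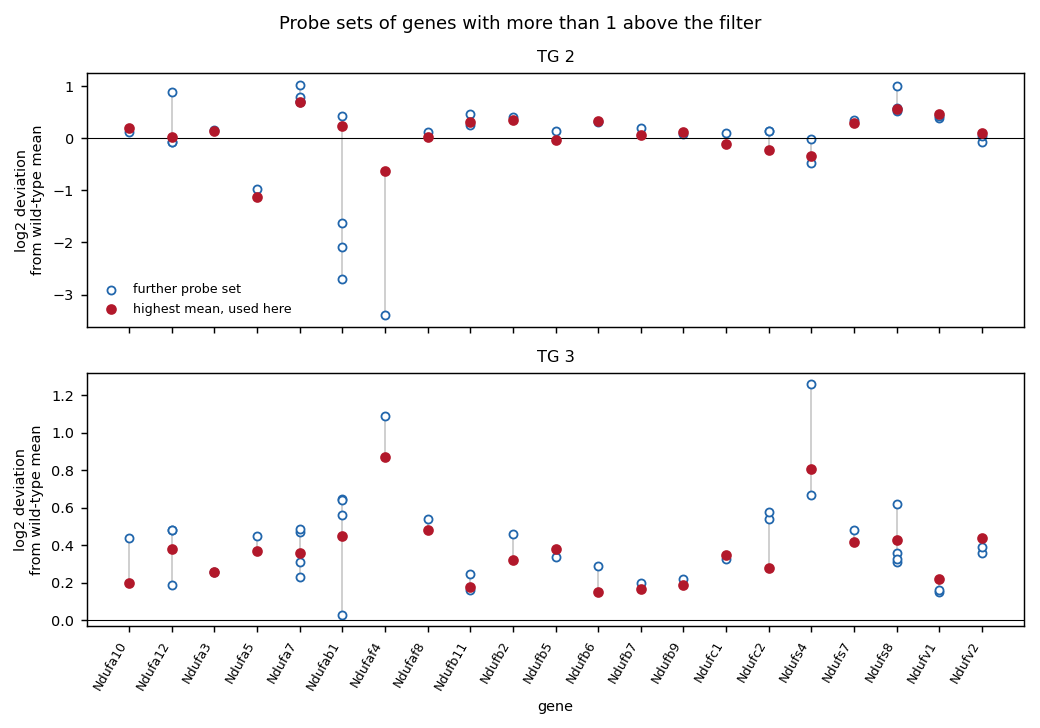
Log2 deviation from the WT mean (vertical axis) of every probe set above the filter, for the 21 Nduf genes with more than 1 (horizontal axis), in TG 2 (top) and TG 3 (bottom). Filled points mark the probe set used here; the widest ranges are those of Ndufab1 (3.14) and Ndufaf4 in TG 2, while in TG 3 every point lies above 0.

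The promoters of Nduf genes were searched for 2 motifs tied to mitochondrial genes in general knowledge, since the genes moved together in TG 3. The NRF1 core GCATGCGC and the estrogen-related receptor site CAAGGTCA were searched on both strands of the 250 bases before the RefSeq start, in 39 Nduf genes with a RefSeq promoter searched here. The NRF1 core was found in 3 of 39, against 2.56% of 27025 genes, and the receptor site in 1 of 39, against 1.51%. Counts this small describe these letters in this window only. The 4 promoters with a match are shown because they carry those letters, from RefSeq on GRCm38.p6, in the direction of transcription, with the motif in capitals. In Ndufaf4 the capitals cover 2 overlapping matches, 1 on each strand. They lie at chr15:82354292-82354541 (minus strand, Ndufa6), chr2:36049339-36049588 (minus strand, Ndufa8), chr4:24897833-24898082 (plus strand, Ndufaf4) and chr4:123718187-123718436 (minus strand, Ndufs5).
Ndufa6: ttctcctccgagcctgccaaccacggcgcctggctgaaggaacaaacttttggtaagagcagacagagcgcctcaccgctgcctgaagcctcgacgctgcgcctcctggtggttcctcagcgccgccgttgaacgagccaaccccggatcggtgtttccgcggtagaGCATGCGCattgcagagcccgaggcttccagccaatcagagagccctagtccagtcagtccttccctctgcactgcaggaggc
Ndufa8: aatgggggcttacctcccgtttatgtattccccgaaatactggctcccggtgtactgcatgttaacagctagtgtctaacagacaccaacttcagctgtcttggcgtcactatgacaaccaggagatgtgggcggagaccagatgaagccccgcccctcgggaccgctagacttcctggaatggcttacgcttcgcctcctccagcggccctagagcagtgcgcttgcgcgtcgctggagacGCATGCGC
Ndufaf4: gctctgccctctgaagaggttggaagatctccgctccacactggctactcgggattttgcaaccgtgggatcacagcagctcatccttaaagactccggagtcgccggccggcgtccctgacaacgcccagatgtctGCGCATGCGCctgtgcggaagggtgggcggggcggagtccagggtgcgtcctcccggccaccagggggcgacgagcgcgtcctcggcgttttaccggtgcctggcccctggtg
Ndufs5: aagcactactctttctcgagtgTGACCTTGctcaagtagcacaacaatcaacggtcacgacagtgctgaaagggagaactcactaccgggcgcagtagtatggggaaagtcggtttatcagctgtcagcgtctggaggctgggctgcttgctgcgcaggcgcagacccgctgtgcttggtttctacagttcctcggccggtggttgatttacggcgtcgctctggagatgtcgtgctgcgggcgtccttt
The 4 genes did not share a pattern in TG 2, where Ndufa8 lay 0.37 above its WT mean and Ndufa6, Ndufaf4 and Ndufs5 deviated by -0.25, -0.62 and -0.14. In TG 3 they lay 0.49, 0.45, 0.87 and 0.53 above it, in the order of the sequences. In that array 42 of all 43 Nduf genes lay above their WT mean, at a median deviation of 0.38, most of them with no match found. A link between these letters and the level was not tested.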

How the data were processed

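Ventricular total RNA of 8 mice was hybridised to Affymetrix Mouse Genome 430 2.0 arrays, 1 per mouse, per the labels. The authors deposited log2 values per probe set, and the submitters' processing notes name GCRMA, which corrects background by probe base composition and normalizes arrays by quantiles (no version is given there). GCRMA draws dim probe sets to a common low level. Genes came from the platform annotation (34958 of 45101 probe sets with 1 symbol). RefSeq held all 44 Nduf genes by Entrez identifier, with 0 symbols changed.

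The TG minus WT difference was estimated by lmFit and eBayes, without trend, of limma 3.58.1 under R 4.3.3, over 8 arrays and 9605 genes above log2 5 in at least 4 arrays, with Benjamini-Hochberg adjustment at 0.05, and single genes also by an exact two-sided permutation test of group means. The fit was run on simulated data that had the WT spread in both groups, added shifts and no divergent arrays. In the real data the median SD over all genes was 0.49 in TG and 0.19 in WT. That run therefore does not show how the fit behaves with these TG arrays. P-values rest on the spread between these mice, but eBayes draws the variance of each gene towards a value shared by all 9605 genes tested. The SE, confidence intervals and limma p given here are therefore not a gene's own spread alone. Ndufb8, for example, had an SD of 0.10 in TG and 0.03 in WT beside an SE of 0.139. The permutation test uses only the values of the gene itself.

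The members and lists were chosen with earlier results of these data known. Named with values were core subunits, the 12 smallest p, genes without overlap, the 3 highest and 3 lowest in TG 2 and TG 3, and a panel of 7. Alternatives changed filter, scaling, variance model, probe set rule, threshold, replicate block and the arrays used.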

Additional observations from a re-analysis of the deposited data

How the results depend on the processing

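With 8 arrays, precision is limited by the number of mice and by divergent arrays (the 95% confidence interval of a Nduf difference reached a median of 0.389 to either side, and 0.334 without TG 2), and probe sets near the low end of the scale have little signal over background. No Nduf gene passed under any alternative run. Nduf genes at an unadjusted p under 0.05 numbered 4 with no filter on level, 6 with array weights and 0 to 1 when 1 array was left out. With array weights 15.9% of all genes were under that p. The share of all genes is not given for the other runs, so their counts say nothing particular about Nduf genes. After adjustment, all genes passing numbered 1 with array weights (Inmt) and 0 under the other alternatives. The count of Nduf genes with the higher TG mean was 30 to 42 when 1 array was left out. The median difference was then 0.05 to 0.19, and relative to all genes -0.06 to 0.14. With TG 2 and TG 3 both left out it was -0.01 relative to all genes. Quantile normalization gave a median difference of 0.12 and centring on array medians 0.14. TG and WT share replicate numbers, and no pairing of mice was assumed. Deviations of same-numbered arrays correlated across genes at 0.295, -0.007, -0.334 and 0.201, and those of other pairs at -0.322 to 0.315. These values cannot decide whether the numbers pair the mice. With a replicate block the median difference stayed at 0.16, 38 of 43 Nduf genes had the higher mean and 0 were called.

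Of 512 alternative values for the 27 named genes, 484 kept their direction and 28 did not, and 13 genes kept it throughout. With TG 2 and TG 3 left out, Ndufs8 and Ndufa7 turned to -0.02, Ndufaf6 to -0.12, Ndufb6 to -0.06, Ndufaf4 to -0.00, Ndufb3 to 0.13 and Ndufa1 to 0.01. Array weights gave 0.18 for Ndufb3, -0.02 for Ndufb6 and 0.01 for Ndufa1. The mean of all passing probe sets gave -0.21 for Ndufaf4 and -0.19 for Ndufab1. Ndufs1 was -0.02 with quantile normalization and -0.00 with median centring. Leaving out 1 array gave -0.14 to 0.24 for Ndufs1, -0.09 to 0.56 for Ndufa4l2, -0.40 to 0.10 for Ndufa5, -0.13 to 0.20 for Ndufb3, -0.21 to 0.29 for Ndufaf4, -0.06 to 0.32 for Ndufs4, -0.14 to 0.06 for Ndufa1, -0.02 to 0.12 for Ndufa4 and -0.00 to 0.29 for Ndufaf1. The causes were not tested.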

Other observations

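In 5 of 43 Nduf genes (Ndufa1, Ndufa13, Ndufa2, Ndufb11 and Ndufv1, picked after their values were seen) WT 1 and WT 2 both lay below WT 3 and WT 4. That order was found in 17.6% of all genes, so the count does not set the Nduf genes apart. It is the reverse of the order in 25 other Nduf genes. For Ndufb11 the probe set used read 13.40, 13.37, 13.58 and 13.59 in WT 1 to WT 4, but a further probe set read 12.52, 12.58, 12.44 and 12.52, without that order, and another read 13.43, 13.51, 13.52 and 13.59, which keeps it. For Ndufv1 the probe set used read 12.82, 12.74, 12.96 and 12.95 and a further one 12.44, 12.44, 12.58 and 12.55 with the same order, while another read 12.80, 12.83, 12.76 and 12.81. Probe sets of 1 gene thus disagree on the order of the WT arrays at steps of about 0.2 log2 units.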
